A study of Mus musculus with 6 samples.

Results

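The Hox clusters are the 4 groups of neighbouring homeobox genes named Hoxa, Hoxb, Hoxc and Hoxd. The members were all protein-coding genes of the mouse gene table whose symbol is one of these names followed by a number, which gave 39 of 21887 genes, with 11 in Hoxa, 10 in Hoxb, 9 in Hoxc and 9 in Hoxd. On mm10, the first to last gene of Hoxa ran over chr6:52155367-52260880, that of Hoxb over chr11:96194316-96368254, that of Hoxc over chr15:102921131-103036856 and that of Hoxd over chr2:74668225-74765142. CUT&Tag, which uses an antibody to direct a DNA-cutting transposase to a chromatin protein or mark, had been run on group 2 innate lymphoid cells (ILC2s), the cytokine-producing lymphocytes of type 2 immunity. The cells were sorted from the colon and cultured, and all 3 groups received the cytokines IL-33, IL-25, IL-7 and IL-2. They were FK866 plus succinate (the inhibitor together with succinate, an intermediate of the citric acid cycle), FK866 alone (an inhibitor of NAMPT, the enzyme that recycles nicotinamide into NAD) and Control, with 2 libraries each. What the antibody bound is unstated in the labels, so peaks mark enrichment of an unnamed target and say neither that a gene is active nor that it is silent. The labels give no mouse strain, age, dose or length of treatment, and are silent on whether a group's libraries came from separate cultures or animals. The p-values therefore measure only the spread between these samples.

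Hox genes encode transcription factors that give cells their position along the body axis. Within a cluster the genes lie in the order in which they are used from head to tail, and genes with the same number in different clusters are paralogs, the low numbers anterior and the high numbers posterior. Trithorax and MLL proteins keep Hox genes on in the cells that use them and Polycomb proteins keep them off elsewhere, while PBX and MEIS proteins bind DNA together with Hox proteins. In blood, members such as Hoxb4 and Hoxa9 act in stem and progenitor cells and are usually shut down as lymphocytes mature, and in the hindgut the posterior members Hoxa13 and Hoxd13 pattern the mesenchyme and epithelium.

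The start regions of 5 members show the range of sequence under and outside the peaks. Each is the 250 bases before the annotated start, from RefSeq on GRCm38.p6, written 5′ to 3′ on the gene's strand with CG in capitals. Hoxa13 (chr6:52260881-52261130, minus strand), Hoxb4 (chr11:96318017-96318266, plus strand) and Hoxd13 (chr2:74667975-74668224, plus strand) are shown because they were the most covered genes of their clusters. Hoxb1 (chr11:96365508-96365757, plus strand) and Hoxa5 (chr6:52204588-52204837, minus strand) were chosen after their values were seen, Hoxb1 because its start lay in a peak in only some libraries and Hoxa5 because its start is rich in CG and lay in a peak in no library.
Hoxa13: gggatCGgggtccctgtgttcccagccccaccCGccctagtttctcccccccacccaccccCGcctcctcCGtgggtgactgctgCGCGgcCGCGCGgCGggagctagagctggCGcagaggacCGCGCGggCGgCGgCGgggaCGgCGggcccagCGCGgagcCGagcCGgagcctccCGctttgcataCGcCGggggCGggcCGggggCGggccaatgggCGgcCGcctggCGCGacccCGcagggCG
Hoxb4: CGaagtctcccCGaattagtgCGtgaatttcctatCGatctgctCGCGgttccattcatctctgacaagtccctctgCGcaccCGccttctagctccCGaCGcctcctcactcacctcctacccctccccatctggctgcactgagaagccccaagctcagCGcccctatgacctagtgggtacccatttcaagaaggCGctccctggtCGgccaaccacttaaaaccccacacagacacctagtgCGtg
Hoxd13: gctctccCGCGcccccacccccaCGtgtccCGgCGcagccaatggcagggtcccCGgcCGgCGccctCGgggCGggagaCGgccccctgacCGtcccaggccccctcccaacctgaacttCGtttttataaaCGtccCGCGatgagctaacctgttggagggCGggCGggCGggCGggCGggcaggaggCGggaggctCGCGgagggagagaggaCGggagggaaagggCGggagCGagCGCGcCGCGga
Hoxb1: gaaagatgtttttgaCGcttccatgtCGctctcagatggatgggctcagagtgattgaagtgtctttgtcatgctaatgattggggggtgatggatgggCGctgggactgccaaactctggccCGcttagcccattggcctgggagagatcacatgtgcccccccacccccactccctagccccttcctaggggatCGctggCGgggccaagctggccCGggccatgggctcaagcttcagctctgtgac
Hoxa5: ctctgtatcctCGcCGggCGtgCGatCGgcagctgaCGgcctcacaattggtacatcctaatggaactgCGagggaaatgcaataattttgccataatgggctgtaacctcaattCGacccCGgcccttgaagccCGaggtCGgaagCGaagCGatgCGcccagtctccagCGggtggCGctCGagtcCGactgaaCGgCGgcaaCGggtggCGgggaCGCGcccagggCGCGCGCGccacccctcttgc
The Hoxa13 and Hoxd13 sequences held 35 and 31 CG pairs with 80.0% and 74.4% G or C, and the Hoxb4 sequence held 14 with 58.0%. The annotated starts of these 3 genes lay in a peak in all 6 libraries. The 250 bases were wholly covered in every library for Hoxa13 and Hoxb4. For Hoxd13 the covered share was 100% and 2.80% in the FK866 plus succinate libraries, 60.4% and 100% with FK866 alone and 100% in both Control libraries, so 1 library with succinate had a peak that began almost at the start. The Hoxb1 sequence held 7 CG pairs. Its start was outside any peak in both FK866 plus succinate libraries and inside one in both FK866 and both Control libraries. The Hoxa5 sequence held 28 CG pairs, an observed to expected ratio of 1.11, and none of its 250 bases was covered in any library.

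RefSeq start regions were at hand for 22 of the 39 members, with 24 starts. Of these starts, 6 lay in a peak in all 6 libraries, those of Hoxa3, Hoxa13, Hoxb4, Hoxc4, Hoxd9 and Hoxd13, 12 lay in none and 6 lay in a peak in some. Counted by library, 6 and 9 of the 24 starts were in a peak in the FK866 plus succinate libraries, 7 and 8 with FK866 alone and 9 and 8 in the Control libraries. Of all 32851 starts in the table, between 41.0% and 42.2% were in a peak in each library. The Hox start regions had a median of 12.5 CG pairs per 250 bases and 58.6% G or C, against 6 and 52.4% over all start regions. The letters GGGCGG, a Sp/KLF-type GC box, occurred on either strand in 10 of 24 Hox regions (41.7%) and in 32.7% of all regions. TGACAG, the core bound by MEIS proteins, occurred in 2 (8.33%) against 15.9%, and TGATNNAT, a PBX-Hox type site, in 4 (16.7%) against 7.68%. GGGCGG contains a CG pair, and neighbouring matches of different motifs can share bases at their ends. These matches describe letters only.

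The clusters also hold microRNA genes of the miR-10 and miR-196 families, which repress Hox messenger RNAs in vertebrates, and miR-615, which lies in an intron of Hoxc5. Their mature 5p sequences from RefSeq are shown with the seed, bases 2 to 8, in capitals, since the family members share it.
miR-196b-5p: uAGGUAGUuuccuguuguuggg
miR-196a-5p: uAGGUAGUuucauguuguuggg
miR-10a-5p: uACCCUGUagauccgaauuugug
miR-10b-5p: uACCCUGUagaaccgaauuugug
miR-615-5p: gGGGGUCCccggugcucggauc
The hairpin of miR-196b between Hoxa9 and Hoxa10 (chr6:52230081-52230165) overlapped a peak in 5 libraries, the exception being FK866 plus succinate 1, where the nearest peak was 1912 bp away. The miR-615 hairpin (chr15:103014910-103015001) lay wholly inside the Hoxc5 peak in all 6 libraries. The miR-10a hairpin (chr11:96317165-96317274) was never covered but lay 676 and 647 bp from the Hoxb4 peak in the FK866 plus succinate libraries, 666 and 660 bp with FK866 alone and 647 and 666 bp in the Control libraries. The miR-10b hairpin in Hoxd and both genes of miR-196a, one in Hoxb and one in Hoxc, had no covered base in any library.

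Peaks lay in blocks along the clusters, and the strongest recurred in every library. Merging overlapping peaks of the 6 libraries gave 104 regions in the cluster windows, each window being the cluster with 2 kb on either side. Of these, 40 had a peak in all 6 libraries (38.5%, against 21.7% of all 101435 regions of the genome), 39 in 2 to 5 and 25 in 1 library. The mean fold enrichment, the authors' ratio of signal over local background for a peak, had a median of 4.39 over the 40 shared regions and of 2.22 over the 25 found in a single library. In each library the highest fold within a region was used. These medians were not computed over the rest of the genome, so the contrast cannot be called particular to the Hox clusters. Of the 40 shared regions, 33 overlapped a Hox gene span.

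**Figure D1:**
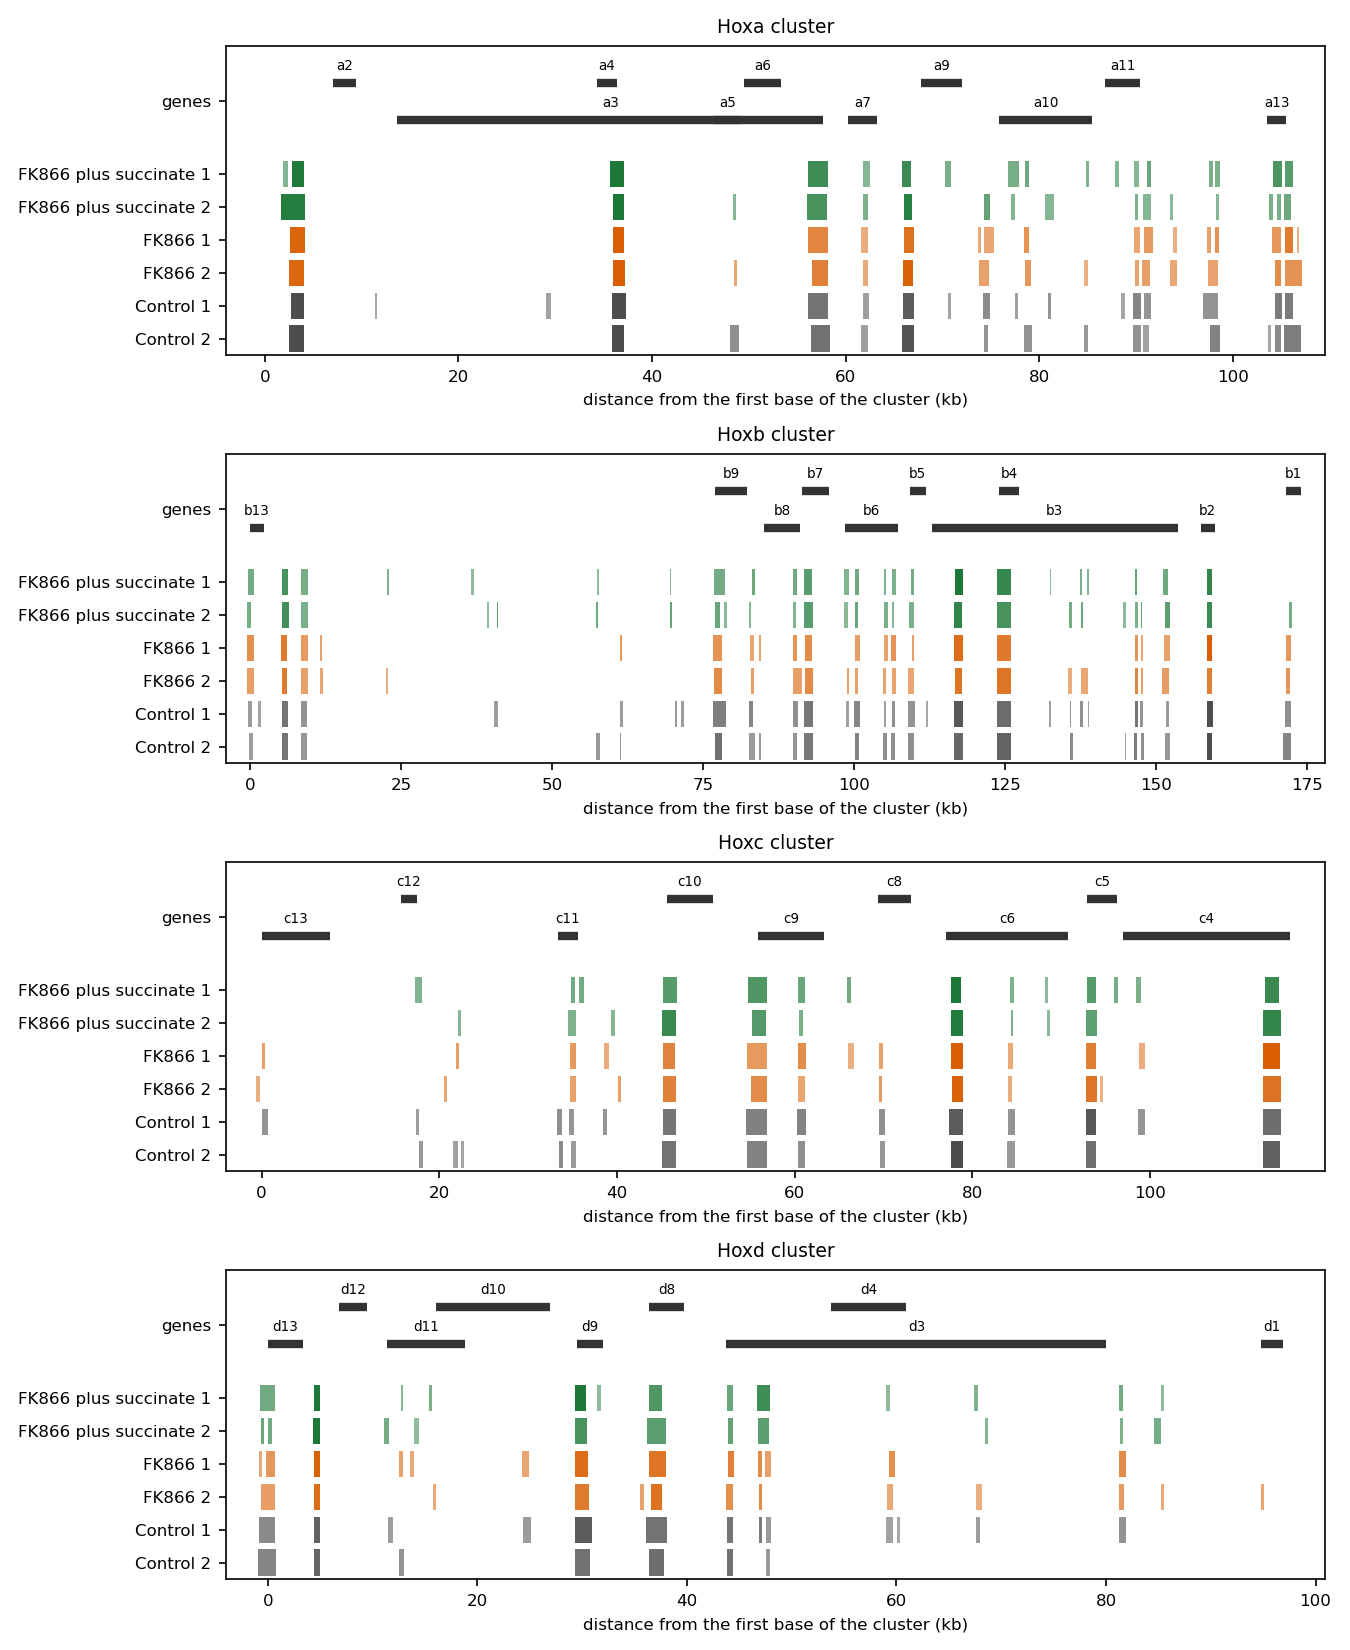
Peaks of each library along the 4 Hox clusters, with distance from the first base of the cluster in kb on the horizontal axis, gene spans as black bars (1 is not drawn) and 1 row per library (green FK866 plus succinate, orange FK866, grey Control, darker for higher fold enrichment). The darkest blocks stand above one another in all 6 rows, while many pale peaks appear in 1 row alone.

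The strongest region by mean fold enrichment, 11.8, was chr6:52191015-52192649, overlapping the higher-coordinate end of Hoxa4, a cervical patterning gene, and within the long annotated span of Hoxa3. Its fold enrichment was 12.0 and 13.3 in the FK866 plus succinate libraries, 11.9 and 11.2 with FK866 alone and 11.3 and 11.1 in the Control libraries. In Hoxc the strongest was chr15:102998562-103000115 over Hoxc6, a thoracic gene, with a mean of 7.97. In Hoxd the strongest was chr2:74672482-74673221 between Hoxd13 and Hoxd12, which overlapped neither gene, with a mean of 7.88. In Hoxb it was chr11:96352660-96353612 over Hoxb2, a hindbrain gene, with 7.38. These folds refer to 1 library at a time and were not compared between groups.

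**Figure D2:**
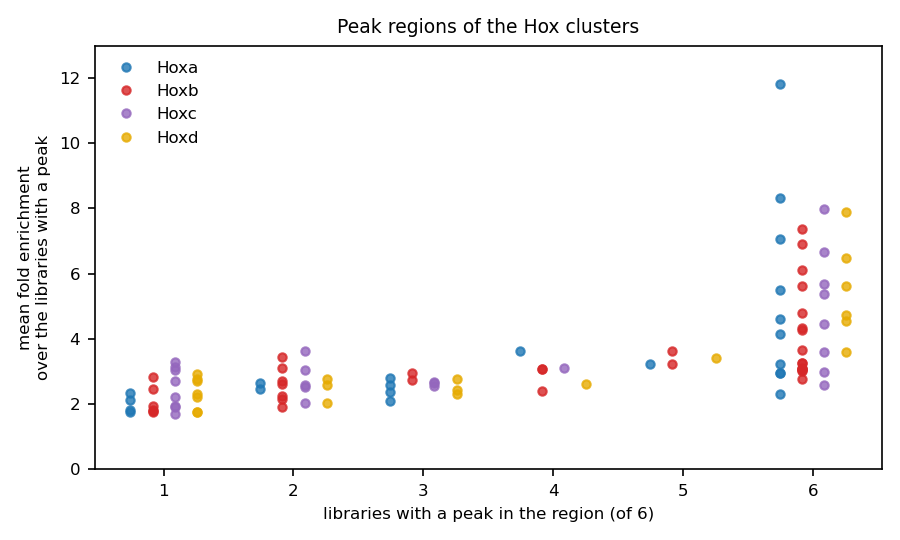
Mean fold enrichment (vertical axis, over the libraries with a peak) of the 104 merged regions against the number of libraries with a peak (horizontal axis), 1 point per region, coloured by cluster. Regions in all 6 libraries ran from 2.32 to 11.8, and those in 1 library did not exceed 3.29.

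Within each deposited list, the Hox peaks were more often past an adjusted p (q) of 0.05 than the list as a whole. The shares were 69.1% and 66.7% of Hox peaks in the FK866 plus succinate libraries, against 55.4% and 47.6% of all their peaks. They were 82.8% and 73.4% with FK866 alone, against 70.1% and 61.8%, and 68.5% and 89.7% in the Control libraries, against 53.9% and 68.9%. The Hox share was above that of the whole list in all 6 libraries, by a description with no test.

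Per gene, coverage was the percentage of the gene span plus 2 kb on either side that lay in peaks. All 39 members had a peak in at least 1 library, and 29 had one in all 6 (74.4%, against 64.1% of all protein-coding genes and 68.0% of those within the length range of the Hox genes). With peaks limited to q under 0.05, 25 members (64.1%) had a peak in all 6 libraries and 3 had none, against 61.0% of all genes with a peak in all 6. With the higher-scoring 50% of each list the order turned, with 23 members (58.97%) against 59.99% of all genes, and 6 members had none. The median coverage was 14.1% over the 39 members, 4.08% over all genes and 7.97% over genes of similar length. By cluster the medians were 13.03% in Hoxa, 17.0% in Hoxb, 11.5% in Hoxc and 5.27% in Hoxd. By position the anterior members (paralogs 1 to 4) had a median of 10.4%, the central ones (5 to 8) 13.4% and the posterior ones (9 to 13) 15.2%, with ranges that overlapped widely. The windows of 29 members overlap that of another member, so neighbours share peaks and are not independent.

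**Figure D3:**
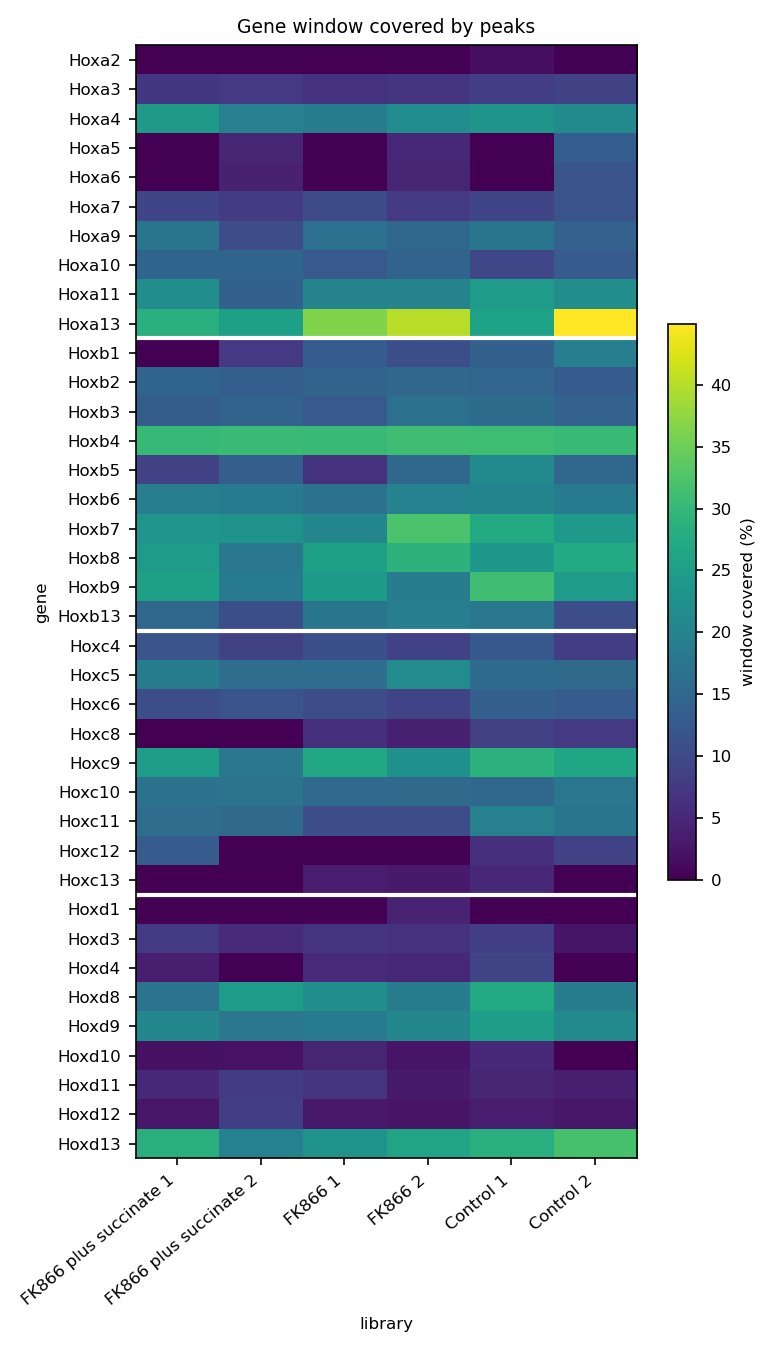
Percentage of each gene window covered by peaks, with Hox genes as rows in cluster order (1 member is not shown), the 6 libraries as columns and a colour scale in percent. Hoxa13, Hoxb4, Hoxc9 and Hoxd13 have the highest mean coverage of their clusters. Hoxa2 and Hoxd1 have a peak in 1 column each, with 1.92% and 4.38%, near the low end of the scale.

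Hoxa13, a hindgut and limb patterning gene, had the highest mean coverage of all members, 33.6%. It was covered over 28.5% and 25.5% of its window in the FK866 plus succinate libraries, 36.4% and 40.05% with FK866 alone and 26.1% and 44.9% in the Control libraries. Both values with succinate lay below both FK866 values, while one Control library lay below both FK866 values and the other above them. Hoxb4, which promotes self-renewal of blood stem cells, was the most even: 30.2% and 30.6% in the FK866 plus succinate libraries, 30.3% and 31.1% with FK866 alone and 30.9% and 30.4% in the Control libraries. Its peak, chr11:96317921-96320228, was between 2224 and 2295 bp long in every library.

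Hoxc9, a thoracic patterning gene, was covered over 25.3% and 17.9% in the FK866 plus succinate libraries, 26.8% and 22.5% with FK866 alone and 28.8% and 26.3% in the Control libraries. Both values with succinate lay below both Control values, and FK866 overlapped both groups. Hoxd13, which shapes digits and the hindgut, had 28.2% and 19.7% with FK866 plus succinate, 23.1% and 26.3% with FK866 and 28.3% and 31.9% in Control. Both Control values lay above the other 4, the nearest gap being between 28.3% in Control and 28.2% with FK866 plus succinate. At the other end, Hoxa2 and Hoxd1 had a peak in only 1 library each, 1.92% of the window in Control 1 for Hoxa2 and 4.38% in FK866 2 for Hoxd1. These 2 were left out of the test across genes, which required a peak in at least 2 libraries and so kept 37 members and 15362 genes in all.

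The libraries differed in the number and width of their peaks, with values that overlapped between groups. They held 45446 and 56361 peaks covering 39.5 and 43.7 Mb in the FK866 plus succinate group, 40320 and 43468 peaks covering 39.0 and 39.7 Mb in the FK866 group and 50489 and 41023 peaks covering 43.8 and 39.4 Mb in the Control group. The background per position inferred from the fold values, a relative measure of depth, was 1.74 and 1.25 with FK866 plus succinate, 2.11 and 1.59 with FK866 and 1.84 and 2.14 in Control. All 12 ILC2 markers had a peak in every library, against 64.1% of all protein-coding genes. So did 5 of 7 T cell markers, 4 of 6 B cell markers and 5 of 10 epithelial markers. For myeloid cells it was 3 of 9 and for endothelium 2 of 6. These counts therefore do not tell which cells were in the samples. Of 13 markers of mesenchyme, which expresses posterior Hox genes in the hindgut, 3 had a peak throughout and 6 in no library (Col3a1, Dcn, Lum, Postn, Cdh11 and Tcf21). Their summed coverage was 15.8 and 19.5 percentage points with FK866 plus succinate, 31.7 and 32.3 with FK866 and 25.6 and 24.3 in Control. The groups did not overlap in that sum. They did overlap without Twist1, a mesenchymal transcription factor chosen here after its values were seen, at 15.8 and 19.5 with FK866 plus succinate, 16.5 and 21.1 with FK866 and 25.6 and 17.9 in Control. Twist1 itself had no peak with FK866 plus succinate, 15.1% and 11.2% with FK866 and 0% and 6.38% in Control. The part of these markers in the Hox results was not tested.

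Over the clusters as a whole, both FK866 plus succinate libraries lay slightly below both FK866 and both Control libraries, and FK866 and Control overlapped. Over all 4 windows together, 508.1 kb, peaks covered 10.4% and 9.89% in the FK866 plus succinate libraries, 10.5% and 10.7% with FK866 alone and 12.0% and 10.6% in the Control libraries. The means were 10.1% ± 0.342 with FK866 plus succinate, 10.6% ± 0.110 with FK866 and 11.3% ± 1.04 in Control (SD, n = 2 each). Peaks in the windows numbered 68 and 66 with FK866 plus succinate, 64 in each FK866 library, and 73 and 58 in Control.

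FK866 minus Control was -0.713 percentage points (exact two-sided permutation p = 0.667), FK866 plus succinate minus FK866 -0.464 (p = 0.333) and FK866 plus succinate minus Control -1.18 (p = 0.333). With 2 libraries against 2 the smallest p this exact test can give is 0.333, so no difference could pass a threshold of 0.05. Without the first Control library, which had more peaks than the second, FK866 minus Control was 0.0233, with the sign turned. FK866 plus succinate minus Control was then -0.441. The FK866 plus succinate group is compared with both other groups and the Control group with both treated groups, so the 3 differences are not independent.

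**Figure D4:**
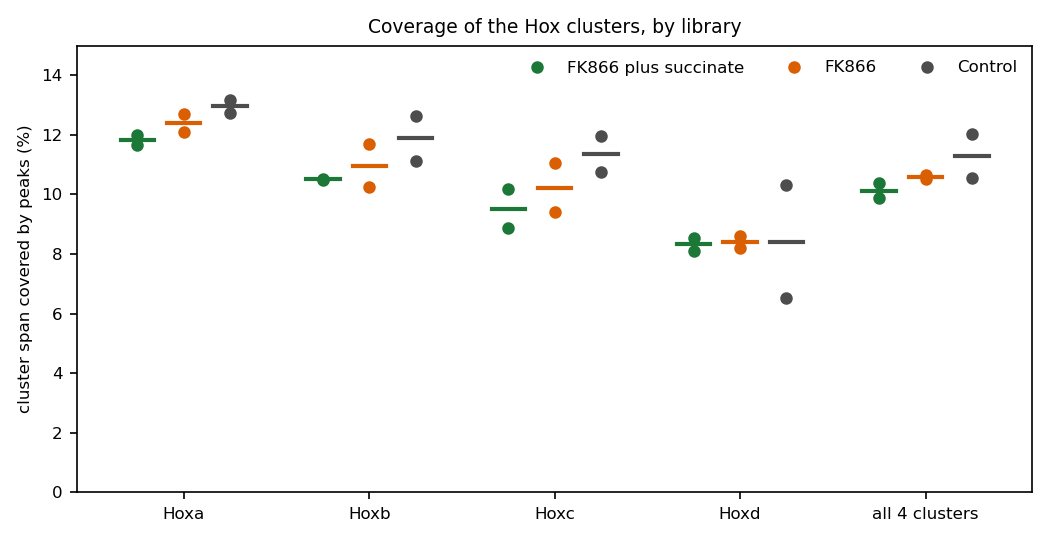
Percentage of each cluster window covered by peaks (vertical axis), 1 point per library and a bar at the mean of the 2 libraries of each group. The groups separate only slightly in Hoxa and overlap in Hoxd, where the 2 Control libraries lie furthest apart.

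Hoxa, with genes for the hindbrain, thymus, blood and hindgut, was covered over 12.0% and 11.6% in the FK866 plus succinate libraries, 12.1% and 12.7% with FK866 alone and 12.7% and 13.2% in the Control libraries. No pair of groups overlapped there, but the gaps were small, and each comparison had an exact p of 0.333. In Hoxb the values were 10.5% and 10.5%, 10.3% and 11.7%, and 12.6% and 11.1%, with the groups in the same sequence. In Hoxc they were 10.2% and 8.87%, 11.05% and 9.398%, and 12.0% and 10.7%. In both clusters FK866 plus succinate lay below Control without overlap, and FK866 overlapped each of the others. Hoxd values were 8.54% and 8.11% with FK866 plus succinate, 8.62% and 8.20% with FK866 and 10.3% and 6.53% in Control, whose 2 libraries enclosed the other 4.

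In the comparison of FK866 with Control, which asks what inhibiting NAMPT does to the target's distribution, no Hox gene passed the test. With limma on the covered percentages and a Benjamini-Hochberg adjusted p under 0.05, 0 of 37 Hox genes were called, against 11 of 15362 genes (0.0716%). At an unadjusted p under 0.05, 3 Hox genes were lower and 0 higher, against 3.33% lower and 1.52% higher over all genes. The Hox genes' differences had a median of -0.902 percentage points, against -0.108 over all genes tested, and 23 of 37 were negative, against 57.7% of all genes. Hox windows had more coverage to differ in, a median of 14.1% against 4.08% over all protein-coding genes. Differences in points were not scaled to coverage in any comparison, and its part in them was not tested. The 3 members at an unadjusted p under 0.05, Hoxc11, Hoxc8 and Hoxc6, all lie in Hoxc.

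Hoxc11, a posterior gene of the group that patterns kidney and hindlimb, was covered over 10.6% and 10.6% with FK866 alone, against 19.5% and 17.5% in the Control libraries. With FK866 plus succinate it had 16.1% and 15.6%, between the other groups and overlapping neither. FK866 minus Control was -7.91 percentage points (SE 0.992, limma adjusted p = 0.384). The difference came with a region at the lower-coordinate end of the gene, chr15:102954373-102955098, where the Control libraries had peaks of 585 and 525 bp with 3.44 and 3.82-fold enrichment and none of the 4 libraries with FK866 had one. A second region of the gene, chr15:102955594-102956557, had a peak in all 6.

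Hoxc6 had 10.6% and 9.25% with FK866 alone, against 13.7% and 12.998% in the Control libraries (difference -3.43, SE 0.970, limma adjusted p = 0.930). Hoxc8 had 6.17% and 3.92%, against 8.49% and 7.44% (difference -2.93, SE 0.887, adjusted p = 0.943). In both genes the groups did not overlap. The smallest p-values of the other clusters belonged to Hoxa3, which is needed for thymus formation, Hoxb5, which marks blood stem cells, and Hoxd9, a trunk and limb gene. Hoxa3 had 6.60% and 6.95% with FK866, against 8.19% and 8.69% in Control, Hoxb5 6.51% and 14.9% against 21.4% and 14.9%, and Hoxd9 18.6% and 20.8% against 25.2% and 21.3%. Their limma adjusted p was 1.00 in each case, and Hoxb5 had the same value in the second libraries of both groups.

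Counting separation alone, both FK866 libraries lay below both Control libraries in 10 of 37 Hox genes, against 19.9% of all genes tested, and above both in 1, Hoxc5, against 12.8%. By presence, 1 Hox gene was lost, meaning a peak in both Control libraries and none in either FK866 library, against 0.525% of all genes, and 0 were gained, against 0.114%. The lost gene was Hoxc12, a posterior gene of Hoxc, with 0% in both FK866 libraries, against 6.10% and 8.61% in the Control libraries. In the FK866 plus succinate libraries it had 13.1% and 0%. Its difference was -7.36 (SE 4.40, limma adjusted p = 1.00), and with peaks limited to q under 0.05 no Hox gene was lost. Without the first Control library, 1 Hox gene was lost, against 0.832% of all genes, and 3 were gained, against 0.612%.

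In the comparison of FK866 plus succinate with FK866, which asks what adding succinate does in inhibited cells, no Hox gene passed the test either, and the members with the smallest p-values differed in both directions. Of 37 Hox genes 0 were called by limma, against 11 of all genes (0.0716%). At an unadjusted p under 0.05, Hoxc8 was lower and Hoxc11 higher, 1 gene each way, against 4.58% lower and 4.06% higher over all genes. The median difference was -0.353 percentage points over the Hox genes and -0.0145 over all genes, with 22 of 37 negative against 50.9%.

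Hoxc8, a thoracic and motor neuron patterning gene, had no peak in either FK866 plus succinate library, against 6.17% and 3.92% with FK866 alone (difference -5.04, SE 0.887, limma adjusted p = 0.311). Its peak with FK866 alone lay at the lower-coordinate end of the gene, chr15:102990606-102991269, and was 477 and 303 bp long. Hoxc11 had 16.1% and 15.6% with FK866 plus succinate, against 10.6% and 10.6% with FK866 (difference 5.27, SE 0.992, adjusted p = 0.347). The peak at the lower-coordinate end of Hoxc11 was absent from all 4 of these libraries, so this difference lay in the rest of its window.

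Hoxb1, which specifies part of the hindbrain, had 0% and 7.45% with FK866 plus succinate, against 13.1% and 10.7% with FK866 (difference -8.20, SE 3.24, limma adjusted p = 0.591), without overlap. In Hoxd the smallest p belonged to Hoxd12, a digit gene, with 2.67% and 8.40%, against 3.12% and 2.44% (difference 2.76, SE 1.93, adjusted p = 0.7497). Its groups overlapped, and without the second FK866 plus succinate library the difference was -0.105.

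Both FK866 plus succinate libraries lay below both FK866 libraries in 8 Hox genes, against 21.8% of all genes, and above both in 5, against 17.9%. By presence, 2 Hox genes were lost, Hoxc8 and Hoxc13, against 0.315% of all genes, and 0 were gained, against 0.658%. Hoxc13, which controls hair and nail keratin genes, had no peak in either FK866 plus succinate library, against 3.44% and 3.28% with FK866 alone (difference -3.36, SE 1.68, limma adjusted p = 0.673), and 5.08% and 0% in the Control libraries. Its peaks in the FK866 libraries were different ones. FK866 1 had a peak in the gene at 2.89-fold enrichment, and FK866 2 had one 237 bp outside the gene at 1.93-fold. No single region of Hoxc13 was therefore lost. The count of genes lost or gained was 1 with peaks limited to q under 0.05. Without the second FK866 plus succinate library it was 3 lost, against 0.969% of all genes, and 1 gained, against 1.23%.

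In the comparison of FK866 plus succinate with Control, most Hox genes had a negative difference, and 0 of 37 passed limma's adjusted threshold, against 24 of 15362 genes (0.156%). Of the 37 differences 28 were negative, against 57.0% of all genes, and the median was -1.81 percentage points, against -0.132. The 2 medians are not on a like scale, since the median coverage was 14.1% over the Hox genes and 4.08% over all genes. At an unadjusted p under 0.05, 3 Hox genes were lower and 1 was higher, against 6.26% and 3.02% over all genes. By cluster, 8 of 10 tested Hoxa genes, 9 of 10 Hoxb genes, 6 of 9 Hoxc genes and 5 of 8 Hoxd genes had a negative difference.

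**Figure D5:**
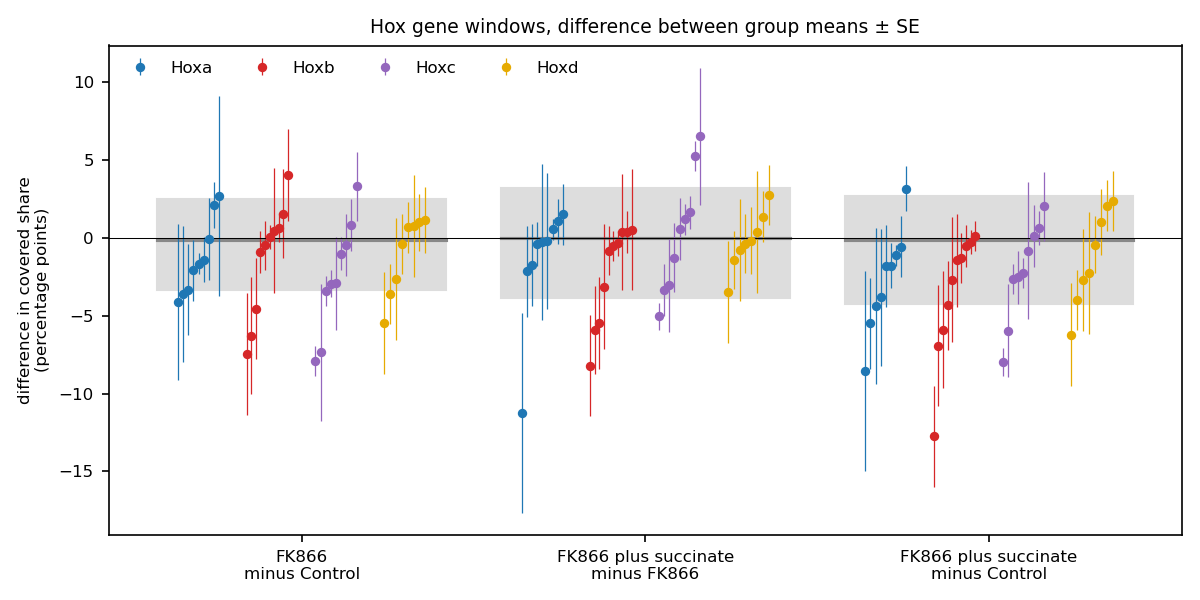
Difference in covered share between group means, in percentage points (vertical axis), with its limma SE as a line, for the tested Hox genes but 1, sorted within each cluster and coloured by cluster, in the 3 comparisons. Grey bands run from the 5th to the 95th percentile of all 15362 genes (FK866 minus Control, -3.35 to 2.52), and several Hox genes lie outside them in each comparison although none passed the adjusted threshold. The bands were not matched for coverage, which was higher in Hox windows.

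Hoxc8 was the member with the smallest p, with 0% in both FK866 plus succinate libraries, against 8.49% and 7.44% in the Control libraries (difference -7.97, SE 0.887, limma adjusted p = 0.134). The Control peaks at its lower-coordinate end were 657 and 576 bp long. Hoxb1 had 0% and 7.45%, against 13.7% and 19.3% (difference -12.8, SE 3.24, adjusted p = 0.416). The Control peaks behind these values were 892 and 1253 bp long and reached into the gene, so the difference was not confined to the start region shown above. That region was covered over 26.4% and 100% in the Control libraries and 4% and 2% with FK866 alone. It was covered over 0% in both FK866 plus succinate libraries, which had no peak over the start.

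Hoxc11 had 16.1% and 15.6% with FK866 plus succinate, against 19.5% and 17.5% in Control (difference -2.64, SE 0.992, limma adjusted p = 0.535). Hoxd9 had 20.9% and 17.8%, against 25.2% and 21.3% (difference -3.97, SE 1.92, adjusted p = 0.639). Both genes were lower with FK866 plus succinate, and their groups did not overlap.

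Both FK866 plus succinate libraries lay below both Control libraries in 11 Hox genes, against 24.5% of all genes, and above both in 4, against 13.4%. By presence, 1 Hox gene, Hoxc8, was lost, against 0.512% of all genes, and 0 were gained, against 0.334%. Leaving out a library can only keep or raise these counts, so Hoxc8 remained lost by the rule itself. With any 1 of the 4 libraries left out, between 2 and 3 Hox genes were lost or gained. Over all genes these settings gave between 0.841% and 1.52% lost and between 0.594% and 1.56% gained. The highest Hox count, without the second Control library, was 3 lost, against 1.52% of all genes, and 0 gained, against 0.594%.

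Few single regions had a peak in both libraries of one group and in neither library of another. FK866 had lost 2 of the 104 Hox regions relative to Control, against 2.04% of all regions, and gained 2, against 1.4%. FK866 plus succinate had lost 2 relative to FK866, against 1.68%, and gained 4, against 2.76%. Relative to Control it had lost 3, against 2.06%, and gained 3, against 2.44%. Among the gained regions were chr6:52232077-52233222 in Hoxa10, with peaks of 1146 and 437 bp with FK866 plus succinate and none with FK866 (Control 307 bp and none), and chr15:103009308-103009937 in Hoxc6, with 356 and 430 bp with FK866 plus succinate and none in the other 4 libraries. The Hoxc6 region was weak, at 1.98 and 2.05-fold enrichment. These regions were named after their values were seen.

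The genes that act with or on the Hox clusters had peaks in nearly all libraries. All 9 PBX and MEIS cofactor genes, all 13 trithorax and MLL group genes and all 21 Polycomb genes had a peak in all 6 libraries. Of all protein-coding genes, 64.1% did. None of the tested members of these lists passed limma's adjusted threshold in any comparison.

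The related CDX, EVX and ParaHox genes were less even. Of 9, 3 had a peak in every library (Evx2, Gsx1 and Mnx1) and 3 in none (Cdx1, Cdx4 and Gsx2). Over all protein-coding genes the shares were 64.1% and 27.2%. Cdx2, which switches on posterior Hox genes in the gut epithelium, had 0% and 16.6% with FK866 plus succinate, 3.84% and 15.7% with FK866 and 25.2% and 17.5% in Control. Both Control values lay above every treated value, while the libraries within each treated group lay far apart. Evx2, next to Hoxd13, had 10.1% and 10.1%, 15.04% and 17.9%, and 11.6% and 13.4%, with the groups in the same sequence. FK866 plus succinate minus FK866 was -6.39 (SE 1.34, limma adjusted p = 0.406). Cdx2 and Evx2 were picked from the list after their values were seen.

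Of 9 genes of the retinoic acid pathway, a signal that opens Hox clusters in the embryo, 6 had a peak in every library and 2 in none (Rarb and Aldh1a1). These counts were close to the shares of all protein-coding genes, 64.1% and 27.2%. Cyp26a1, which breaks retinoic acid down, was picked from the list after its values were seen. It had no peak in either FK866 plus succinate library, against 10.5% and 7.86% with FK866 alone and 8.01% and 8.42% in Control. By presence it was lost relative to both groups, as were 0.315% of all genes relative to FK866 and 0.512% relative to Control. FK866 plus succinate minus FK866 was -9.16 (SE 0.996, limma adjusted p = 0.185) and minus Control -8.22 (SE 0.996, adjusted p = 0.167). Of the 16 genes that flank the clusters, 13 had a peak in all 6 libraries, against 64.1% of all protein-coding genes. Their median coverage was 2.97%, against 4.08% over all genes, and none passed the adjusted threshold. Evx1 and Evx2 are in this list and in that of the CDX, EVX and ParaHox genes.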

How the data were processed

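CUT&Tag was measured in 6 libraries, 2 in each of 3 groups taken from the labels. Per the submitters' processing notes, cutadapt 1.9 and Bowtie2 2.5.0 were used with the mouse build mm10. The authors deposited 1 peak list per library, with the peak caller not given in the labels. As the values show, the authors' score equals 10 times the deposited −log10 p, cut to a whole number. The deposited ratio is the fold enrichment over the local background of the same library, and the deposited −log10 p and −log10 q also refer to 1 library. Read counts were not used here, so depth is known only through the background inferred from steps in the fold values, and no counting interval was set.

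Coverage of gene and cluster windows (2 kb flank, on 21 chromosomes) was computed with Python 3.11.15, numpy 2.4.6 and pandas 2.3.3. A gene was present with at least 1 bp of peak. Genes with a peak in at least 2 libraries were tested with limma 3.58.1 (R 4.3.3, all 6 libraries in one fit, variance trend) and Benjamini-Hochberg adjustment at 0.05 over all genes tested. The script was tested on simulated data. For FK866 against Control it recovered 59% of 100 genes changed by 10 percentage points and 85% of 100 changed by 20. There were 6 false calls. A Hox difference of 10 points or less could therefore be missed. Single values were tested with an exact two-sided permutation test. limma's result for all genes rests on few residual degrees of freedom.

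Per-library values are given for members lost or gained, for any past the limma threshold, for the smallest limma p per cluster and comparison, and for the highest mean coverage per cluster. Members and gene lists were chosen with earlier results of these data known. Gene positions and symbols came from a RefSeq table on GRCm38.p6, the assembly named mm10, as did start regions and microRNAs. Alternatives varied the peak threshold, the list length, the flank, the window, the filter, the normalization and the libraries. Protein sequences were not used here. Values of 1 member of the Hox clusters and 1 Polycomb gene are not reported here.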

Additional observations from a re-analysis of the deposited data

How the results depend on the processing

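No Hox gene passed limma's adjusted threshold under any alternative. Over all genes the limma count was 0 in each comparison with 2 kb around the lead site, with a peak required in at least 4 libraries, without the variance trend and on leaving out any library (lowest and highest both 0), fewer than in the main setting. For FK866 against Control (11 genes) it was 0 with the higher-scoring 50% of peaks, 3 with no flank, 5 with quantile normalization and 21 with no filter. For FK866 plus succinate against FK866 (11) it was 19 with q under 0.05, 27 with the higher-scoring 50% and 19 with no flank, and for FK866 plus succinate against Control (24) it was 49 with q under 0.05. Same-numbered libraries showed no sign of pairing in their deviations from the group means. These correlated at 0.00645 for Control and FK866, -0.0585 for Control and FK866 plus succinate, and 0.0216 for FK866 and FK866 plus succinate. Such a correlation cannot show whether the libraries shared a culture, animal or batch. With the replicate block the limma count was 0 in each comparison. Each group holds 1 library of each replicate number, so the block cannot change the differences themselves (Hoxc8, FK866 plus succinate minus Control, -7.97). Hox genes lost or gained between FK866 and Control (1) numbered 0 with q under 0.05 or with no flank, 2 with the higher-scoring 50% or lists cut to the shortest length, and 1 to 4 on leaving out a library. By the rule for lost and gained, leaving out a library can only keep or raise such counts. For FK866 plus succinate against FK866 (2) they numbered 1 with q under 0.05, 0 with the higher-scoring 50% and 2 to 4 without a library, and against Control (1) 2 to 3 without a library. Over all genes, leaving out a library gave 0.832% to 2.06% lost and 0.297% to 0.612% gained for FK866 against Control. For FK866 plus succinate against FK866 it gave 0.649% to 0.969% lost and 1.23% to 2.25% gained. Against Control it gave 0.841% to 1.52% lost and 0.594% to 1.56% gained. The coverage difference over all 4 clusters, in percentage points, ran from -1.45 to 0.0233 without a library for FK866 minus Control (0.0233 without Control 1), from -0.706 to -0.222 for FK866 plus succinate minus FK866, and from -1.91 to -0.441 for FK866 plus succinate minus Control. With the higher-scoring 50% FK866 plus succinate minus FK866 was 0.294. Single clusters turned sign as follows, the cause not being tested. For FK866 minus Control, Hoxa was 0.00265 per covered Mb of the library and Hoxb 0.000281 with q under 0.05. Hoxd, near 0 from the start, was 0.183 at the shortest list length, 0.314 with no flank, 0.0135 per covered Mb, 1.88 without Control 1 and 0.197 without FK866 2. For FK866 plus succinate minus FK866, the higher-scoring 50% gave 0.477 in Hoxa, 0.311 in Hoxc and 0.844 in Hoxd, no flank gave 0.116 in Hoxa and q under 0.05 gave 0.172 in Hoxd. On leaving out 1 library that difference ran from -1.18 to 0.255 in Hoxb (highest without FK866 2), from -1.52 to 0.127 in Hoxc (highest without FK866 1), from -0.299 to 0.137 in Hoxd (0.129 without FK866 1, 0.137 without FK866 plus succinate 2) and from -0.105 to 5.62 for Hoxd12 (lowest without FK866 plus succinate 2). For FK866 plus succinate minus Control, Hoxd was 0.183 with the higher-scoring 50%, 0.235 with no flank, 0.00057 per covered Mb, and on leaving out 1 library between -1.99 and 1.80 (1.80 without Control 1, 0.123 without FK866 plus succinate 2). Depth as read counts is unknown, so a missing peak cannot be told apart from one that was not detectable.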
